A study of Mus musculus with 18 samples.

Results

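The amino acid transporter families of mouse liver were described across the livers of mice after myocardial infarction (MI) or sham operation. Members were taken by gene symbol, from the solute carrier families Slc1, Slc3, Slc6, Slc7, Slc36, Slc38 and Slc43. Each symbol had to be the family name followed by a and digits only. Symbols that end in a further letter, such as Slc6a20a and Slc6a20b, were thus left out. The 1 day table held 61 members, of which 33 had enough counts to be tested, and the 12 hour table held 56, of which 34 were tested. These stand among 50600 and 17127 genes, of which 14266 and 12548 were tested. There were 30 members tested at both times, with Slc6a7, Slc7a4 and Slc7a15 tested at 1 day only (3) and Slc1a7, Slc6a2, Slc6a18 and Slc7a14 at 12 hours only (4). At 1 day, the livers came from littermate control (LC) mice, whose mineralocorticoid receptor (MR) alleles are flanked by loxP sites, and from hepatocyte MR knockout (HMRKO) mice, which carry the same alleles with Cre recombinase driven by the albumin promoter. Each genotype was studied after MI, made by tying off a coronary artery for good, and after a sham operation without the tie. This gave the groups LC + sham and LC + MI and the groups HMRKO + sham and HMRKO + MI, with 3 livers each. At 12 hours, 3 livers of C57 MI and 3 of C57 sham mice with intact MR were sequenced. All mice were male, of the C57BL/6 strain, and labelled as 12 weeks old. Albumin-Cre acts in hepatocytes, so MR remains in the other liver cells, and no source used here gives the time of day at which livers were taken.

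Amino acids cross membranes on a small number of carrier families. The Slc38 proteins carry small neutral amino acids with sodium at the plasma membrane (systems A and N) or sit on lysosomes. Some Slc36 proteins, such as Slc36a1, couple amino acids to protons at lysosomes. Slc7 proteins carry cationic amino acids alone, or pair as light chains with a heavy subunit of the Slc3 family that brings them to the membrane. Slc1 proteins carry glutamate, aspartate or small neutral amino acids, Slc43 proteins include facilitative carriers of large neutral amino acids, and Slc6 proteins carry glycine, taurine, betaine, creatine, GABA and monoamines with sodium and chloride. In liver these carriers feed the urea cycle, gluconeogenesis and protein synthesis, and pericentral hepatocytes take up glutamate to make glutamine. The comparisons below ask how the transcripts of these carriers differed after MI and with hepatocyte MR deficiency.

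Total counts were 19098704 to 28945526 per liver at 1 day. At 12 hours the estimated counts summed to 1361564 to 2255837 in the C57 sham libraries and to 16745688 to 19190438 in the C57 MI libraries, so depth and operation cannot be told apart there. Nr3c2, which encodes MR, measured 5.60, 6.70 and 4.71 CPM (counts scaled by TMM to a fixed library total) in LC + sham livers and 2.93, 3.76 and 2.55 CPM in HMRKO + sham livers. The groups did not overlap, but the gene did not pass between the sham groups (log2 fold change −0.88, standard error 0.25, edgeR adjusted p = 0.471). After MI it measured 3.56, 2.13 and 1.90 CPM in LC and 0.895, 1.10 and 0.913 CPM in HMRKO livers (log2 fold change −1.36, standard error 0.29, edgeR adjusted p = 0.00505). Transcripts of the mitochondrial genome made up 18.9% of LC + MI replicate 1 and 7.53% to 15.6% of the other libraries at 1 day, and Slc36a1, Slc38a6, Slc43a3, Slc6a13, Slc6a8, Slc6a9 and Slc7a6 no longer passed between the MI groups without that liver (edgeR adjusted p 0.0664 to 0.146). The libraries came from whole liver, so fewer cells of a type and less RNA per cell cannot be told apart.

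Promoter sequences are shown for 3 members that rose in HMRKO livers after MI and whose shown stretch holds no annotated exon: Slc38a2 (system A), Slc36a4 and Slc38a10. Each line gives the 100 bases from 120 to 21 bases before the gene start in RefSeq (build GRCm38.p6), read 5′ to 3′ along the gene. They stand at chr15:96699749-96699848 (minus strand), chr9:15709618-15709717 (plus strand) and chr11:120151372-120151471 (minus strand).
Slc38a2: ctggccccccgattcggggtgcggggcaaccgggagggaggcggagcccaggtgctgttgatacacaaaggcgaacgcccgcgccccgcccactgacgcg
Slc36a4: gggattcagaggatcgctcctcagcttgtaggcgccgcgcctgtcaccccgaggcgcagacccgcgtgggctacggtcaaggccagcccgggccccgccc
Slc38a10: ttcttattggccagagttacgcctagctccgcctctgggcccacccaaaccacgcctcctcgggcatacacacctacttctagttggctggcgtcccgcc
Over the 250 bases before the start, G and C made up 72.0% (Slc38a2), 66.0% (Slc36a4) and 60.4% (Slc38a10), against a median of 52.4% over all promoters. CG pairs numbered 30, 23 and 13 there, against a median of 6.

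RefSeq promoter windows of 300 bases (250 before to 50 after the start) matched 43 members, 23 of them tested at 1 day, and 27025 genes in all. The 4 motifs searched on both strands were the core of the amino acid response element (TGATGNAA), a corticosteroid receptor element (GNACA and TGTNC, 3 bases apart), a STAT element (TTCNNNGAA) and the E-box (CACGTG, its own reverse complement). The first was in 4 members (9.30%) and 4.51% of all genes, the corticosteroid element in 1 member (2.33%, Slc38a11, which was not tested) and 0.537% of genes, and the STAT element in 4 members (9.30%) and 9.55% of genes. The E-box, which MYC, USF, TFEB and CLOCK family factors are known to bind, was in 9 members (20.9%) and 8.09% of all genes. The 4 tested members that hold an E-box are shown because each of them passed as lower in HMRKO + MI livers, against LC + MI livers or against HMRKO + sham livers. Of the 19 tested members with a promoter and no E-box, 4 did (Slc38a4, Slc38a6, Slc6a13 and Slc6a9). Slc38a3, Slc6a7 and Slc7a4 also passed as lower within HMRKO livers, but they had no matched promoter window and are not in this split. Among the members with an E-box, Slc36a1 did not pass without LC + MI replicate 1, and Slc6a16 had 2 to 7 counts in HMRKO + MI livers. Of all tested genes with a promoter, 24.5% of the 1206 with an E-box and 25.4% of the 9172 without one were lower in either comparison, so all genes did not show the members' split. The split was made after the values were seen and has no test. Each line holds 30 bases around the first E-box, in capitals, at chr11:55204297-55204326 (Slc36a1, plus strand), chr8:95853508-95853537 (Slc38a7, minus), chr2:84840247-84840276 (Slc43a1, plus) and chr7:45240701-45240730 (Slc6a16, plus).
Slc36a1: ggaatggagcggCACGTGacctgggctagg
Slc38a7: gtgattcaggctCACGTGttacttgagtcg
Slc43a1: agggtctccctcCACGTGgcagccgtggga
Slc6a16: agaagctgcgagCACGTGtatgtgcacgcg

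A member passed when its adjusted p (Benjamini-Hochberg, over all genes tested) from edgeR's quasi-likelihood test was under 0.05 at any fold change, and was called when its log2 fold change also exceeded 1 in size. In LC livers after MI, 0 of the 33 members were higher and 3 were lower, where 2.68% and 2.33% of all genes were higher and lower. 10 members had an unadjusted p under 0.05, and DESeq2 passed 1 as higher and 4 as lower. The call was met by 2 members (6.06%), against 2.49% of all genes. In HMRKO livers after MI, 7 members were higher (21.2%, against 22.0% of all genes) and 9 were lower (27.3%, against 21.7%), and 9 were called (27.3%, against 20.4%). Scaling by library totals alone gave 5 higher and 10 lower. Between the MI groups, 7 were higher in HMRKO (21.2%, against 14.6%) and 6 lower (18.2%, against 16.2%), and 3 were called (9.09%, against 12.4%). The members' median log2 fold change was −0.04 in LC livers, −0.18 in HMRKO livers and 0.11 between the MI groups, beside 0.01, 0.01 and −0.01 over all genes tested.

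Between the sham groups 0 members passed in edgeR and in DESeq2, and 2 had an unadjusted p under 0.05. Of all genes, 0.021% were higher, 0.014% lower and 0.028% called in that comparison. The interaction, which tests whether the response to MI differed between genotypes, passed for 4 members with the more positive response in HMRKO livers (12.1%, against 6.74% of all genes) and for 2 with the more negative (6.06%, against 8.5%). It was called for 4 (12.1%, against 10.1%). Scaling by library totals alone gave 2 and 3. The shares within HMRKO livers were near those of all genes, so the counts there say little of the families as a whole, and the members are taken below by what they carry.

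**Figure D1:**
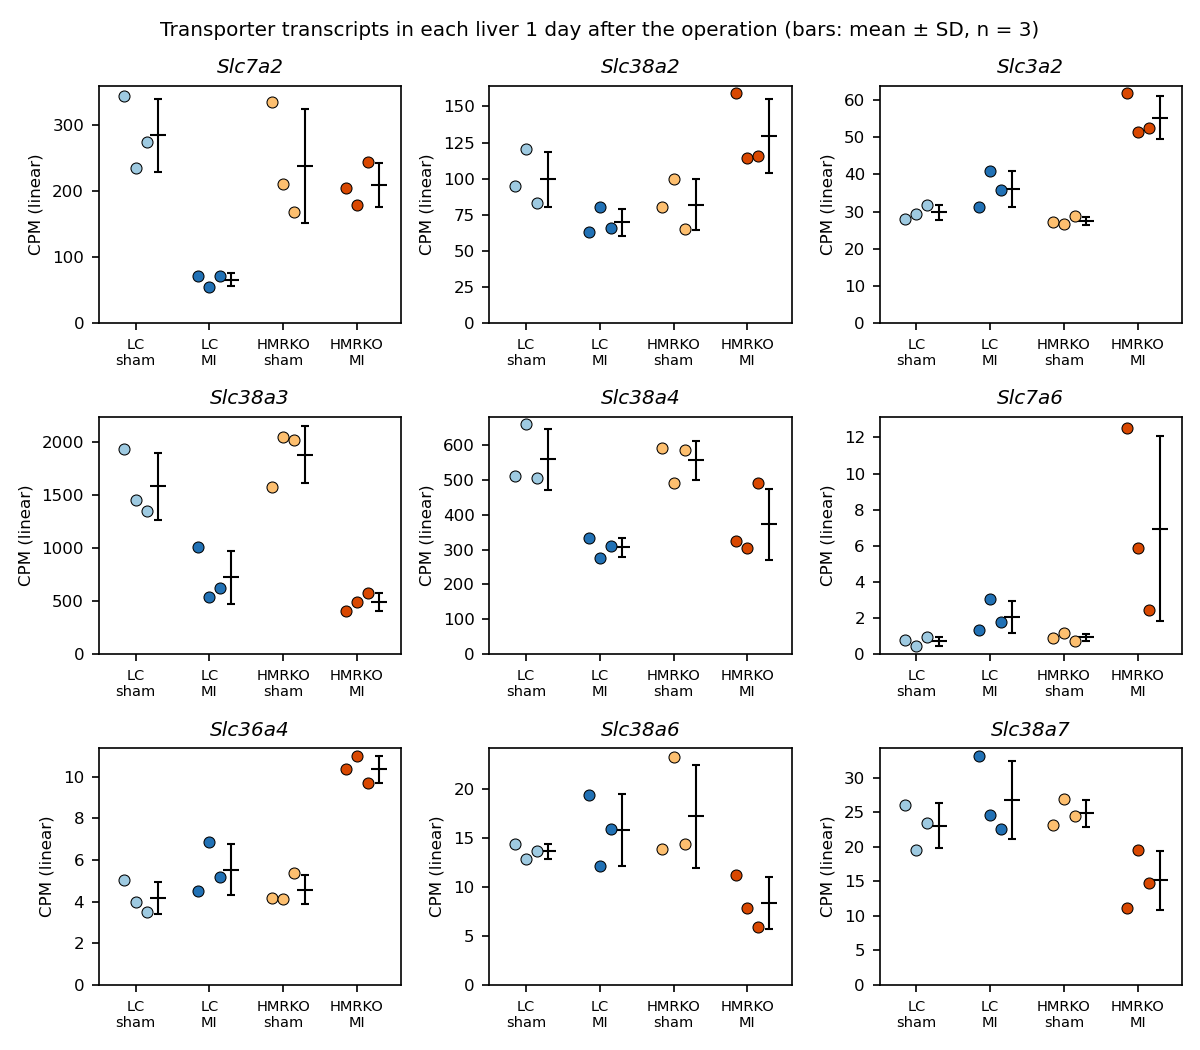
CPM of 9 members in each of the 12 livers at 1 day (points, linear axis from 0), with mean ± SD of the 3 livers of a group. Slc7a2 was low in the LC + MI livers alone (54.4 to 71.8 CPM), Slc38a3 was low after MI in both genotypes, and Slc3a2 and Slc36a4 were highest in the HMRKO + MI livers.

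Slc7a2 (ENSMUSG00000031596), which encodes the hepatic carrier of arginine, lysine and ornithine, fell after MI in LC livers and did not pass in HMRKO livers. It measured 344, 235 and 274 CPM in LC + sham and 71.2, 54.4 and 71.8 CPM in LC + MI livers (log2 fold change −2.11, standard error 0.25, edgeR adjusted p = 0.00124). In HMRKO livers it measured 334, 209.9 and 168 CPM after sham operation and 204, 179 and 244 CPM after MI (log2 fold change −0.18, standard error 0.24, edgeR adjusted p = 0.56). The 3 LC + MI livers lay below the 9 others, which overlapped one another. It was higher in HMRKO + MI than in LC + MI livers (log2 fold change 1.67, standard error 0.25, edgeR adjusted p = 0.00112). The responses of the genotypes differed by 1.93 on the log2 scale (interaction, standard error 0.34, edgeR adjusted p = 0.00812), and this passed under every alternative run. Slc7a1, the cationic carrier of most other tissues, stayed at 0.144 to 0.839 CPM and did not pass in any comparison.

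Slc7a2 was set beside the urea cycle enzymes of the periportal list, which was listed as 10 genes of hepatocytes near the portal vein. Ass1 (argininosuccinate synthase) measured 1098, 1328 and 1141 CPM in LC + sham, 359.96, 571 and 558 CPM in LC + MI livers, 1147, 703 and 1106 CPM in HMRKO + sham and 889, 1017 and 1319.8 CPM in HMRKO + MI livers. It thus fell in LC livers (log2 fold change −1.26, edgeR adjusted p = 0.014), as Cps1 (carbamoyl phosphate synthetase) did (−1.31, edgeR adjusted p = 0.0232), and both passed the interaction (1.39 and 1.45, edgeR adjusted p = 0.0196 and 0.0303). Arg1 (arginase) took another course. It measured 953, 937 and 1006 CPM in LC + sham and 773, 1142 and 1304 CPM in LC + MI livers, which did not pass (log2 fold change 0.15, edgeR adjusted p = 0.712). In HMRKO livers it rose from 871, 652 and 741 to 2717, 2166 and 2755 CPM (log2 fold change 1.75, edgeR adjusted p = 7.25e-05), and it passed the interaction (1.60, edgeR adjusted p = 0.00812). Of the 10 listed genes, 5 were lower in LC livers after MI, where 2.33% of all genes were lower, and 0 were higher. In HMRKO livers after MI, 1 was higher and 2 were lower, where 22.0% and 21.7% of all genes were. Between the MI groups 4 were higher in HMRKO livers, where 14.6% of all genes were higher, and 0 were lower. The list's median log2 fold change was −1.0 in LC and −0.18 in HMRKO livers, beside the medians of all genes given above. For the 11 pericentral genes, 0 passed in LC livers and 4 fell in HMRKO livers (36.4%, against 21.7% of all genes).

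Among the system A and N carriers of the plasma membrane, Slc38a3 (ENSMUSG00000010064), the system N carrier of glutamine and histidine, took the largest share of the members' counts in each liver. It measured 1939, 1457 and 1348 CPM in LC + sham livers and 1011, 541 and 624 CPM in LC + MI livers (log2 fold change −1.12, standard error 0.25, edgeR adjusted p = 0.0243). In HMRKO livers it measured 1573, 2052 and 2021 CPM after sham operation and 406, 493 and 579 CPM after MI (log2 fold change −1.93, standard error 0.25, edgeR adjusted p = 0.000135). The sham and MI livers did not overlap in either genotype. The responses of the genotypes differed by −0.81 on the log2 scale, which did not pass (standard error 0.35, edgeR adjusted p = 0.122). The fall in LC livers did not pass in 5 of the alternatives run (highest adjusted p 0.104), while that in HMRKO livers passed in each of them. The share of Slc38a3 in the members' summed CPM went from 45.3% to 53.2% in LC + sham livers to 33.4% to 44.6% in LC + MI livers. It went from 47.3% to 57.3% to 22.9% to 28.2% in HMRKO livers.

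Slc38a4 (ENSMUSG00000022464), a system A carrier that also takes cationic amino acids, fell in both genotypes. It measured 511, 662 and 505 CPM in LC + sham, 333, 277 and 309 CPM in LC + MI livers, 591, 493 and 586 CPM in HMRKO + sham and 326, 303 and 490.5 CPM in HMRKO + MI livers. Its log2 fold change after MI was −0.87 in LC (standard error 0.20, edgeR adjusted p = 0.0277) and −0.58 in HMRKO livers (standard error 0.20, edgeR adjusted p = 0.0302). Each was lost on leaving out any of 4 single livers (highest edgeR adjusted p 0.108 and 0.13), which were replicates 2 and 3 of both LC groups, replicates 1 and 3 of HMRKO + sham and replicates 1 and 2 of HMRKO + MI. The third HMRKO + MI liver lay just below the lowest HMRKO + sham liver.

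Slc38a2 (ENSMUSG00000022462), the system A carrier that amino acid starvation is known to induce, moved the other way in HMRKO livers. It measured 95.1, 120.5 and 83.1 CPM in LC + sham livers and 63.3, 80.1 and 65.6 CPM in LC + MI livers, which did not pass (log2 fold change −0.52, edgeR adjusted p = 0.155). In HMRKO livers it measured 80.6, 100.1 and 65.3 CPM after sham operation and 159, 114 and 115 CPM after MI (log2 fold change 0.66, standard error 0.20, edgeR adjusted p = 0.0177). The difference between the responses was 1.18 (interaction, standard error 0.28, edgeR adjusted p = 0.0198), and it did not pass without LC + sham replicate 2 (edgeR adjusted p = 0.0517). Between the MI groups it was higher in HMRKO livers (log2 fold change 0.90, standard error 0.20, edgeR adjusted p = 0.00666), which passed in each alternative. The rise within HMRKO livers did not pass in 4 alternatives (highest adjusted p 0.0809). Slc38a1, a system A carrier of brain, was at 0.377 to 1.25 CPM in the 12 livers and did not pass. Slc38a1, Slc38a2 and Slc38a4 are neighbours in the genome, and they did not move together.

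**Figure D2:**
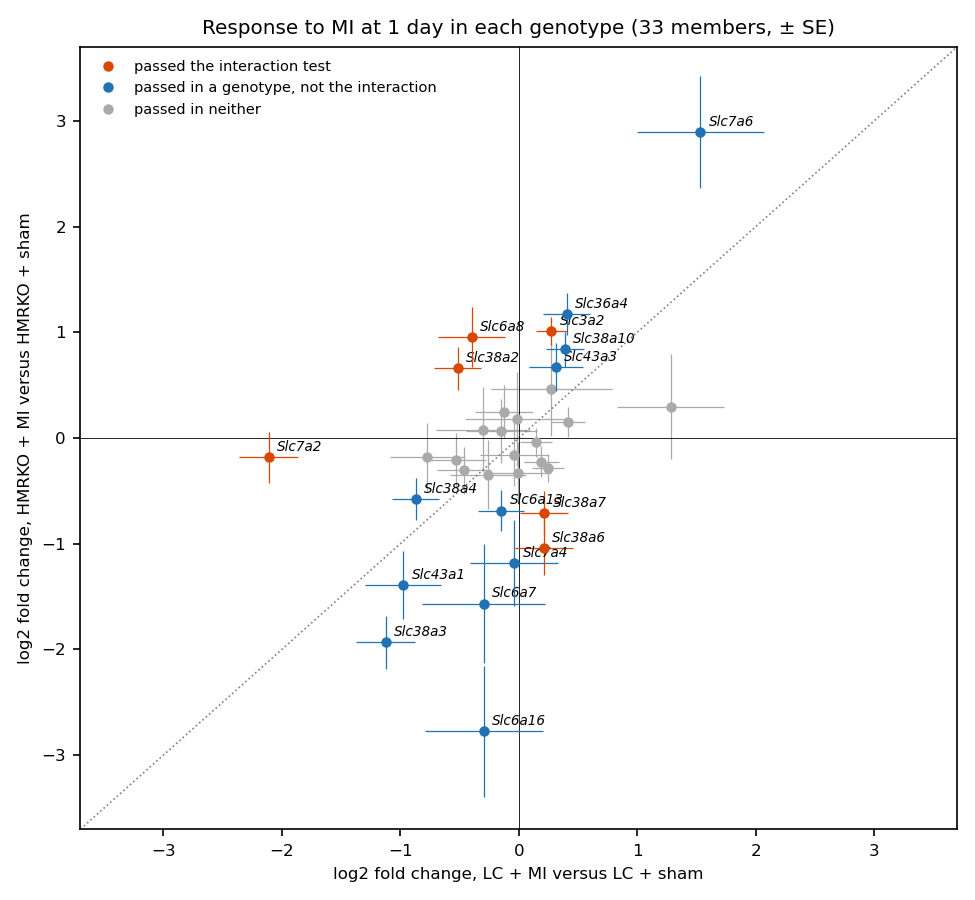
Log2 fold change after MI in HMRKO livers (vertical) against that in LC livers (horizontal) for the 33 members tested at 1 day, each with its standard error from edgeR. The dotted line marks equal responses. Slc7a2 lies far to the left at −2.11 and −0.18, Slc38a3 at −1.12 and −1.93, and Slc7a6 at 1.53 and 2.90.

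Of the lysosomal and other intracellular carriers, Slc36a4 (ENSMUSG00000043885), a high-affinity carrier of proline and tryptophan, rose in HMRKO livers. It measured 5.02, 4.0 and 3.51 CPM in LC + sham, 4.51, 6.88 and 5.19 CPM in LC + MI livers, 4.19, 4.14 and 5.40 CPM in HMRKO + sham and 10.3, 11.0 and 9.69 CPM in HMRKO + MI livers. The HMRKO + MI livers lay above all others. Its log2 fold change was 1.18 within HMRKO (standard error 0.20, edgeR adjusted p = 0.000661) and 0.90 between the MI groups (standard error 0.20, edgeR adjusted p = 0.00569), and the interaction did not pass (0.77, edgeR adjusted p = 0.0774). Slc38a10 (ENSMUSG00000061306), a carrier of glutamine and alanine, measured 67.1, 58.2 and 57.4 CPM in HMRKO + sham and 95.1, 113 and 119 CPM in HMRKO + MI livers (log2 fold change 0.84, standard error 0.16, edgeR adjusted p = 0.00154). In LC livers it measured 52.4, 60.5 and 71.2 CPM after sham operation and 65.4, 84.3 and 91.5 CPM after MI, which did not pass (log2 fold change 0.39, edgeR adjusted p = 0.185).

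Other carriers of this kind were lower in HMRKO + MI livers. Slc38a7 (ENSMUSG00000036534), the lysosomal exporter of glutamine and asparagine, measured 33.2, 24.6 and 22.6 CPM in the LC + MI livers, against 11.1, 19.5 and 14.8 CPM in those of HMRKO + MI (log2 fold change −0.82, standard error 0.20, edgeR adjusted p = 0.011). It was at 19.6 to 26.9 CPM in the sham livers of both genotypes, and its fall within HMRKO livers passed (log2 fold change −0.71, standard error 0.20, edgeR adjusted p = 0.0137), though not without HMRKO + MI replicate 1 (edgeR adjusted p = 0.056). Slc38a6 (ENSMUSG00000044712), a member of the family with less known transport, measured 19.4, 12.1 and 15.9 CPM in LC + MI livers and 11.2, 7.89 and 5.94 CPM in HMRKO + MI livers, with 13.9, 23.3 and 14.4 CPM in HMRKO + sham livers. Its log2 fold change was −0.92 between the MI groups (standard error 0.25, edgeR adjusted p = 0.0171) and −1.04 within HMRKO (standard error 0.25, edgeR adjusted p = 0.00556). The difference between the MI groups did not pass without LC + MI replicate 1 or HMRKO + MI replicate 2 or 3 (highest edgeR adjusted p 0.0694). Both genes passed the interaction, at −0.92 (Slc38a7, standard error 0.29, edgeR adjusted p = 0.047) and −1.25 (Slc38a6, standard error 0.35, edgeR adjusted p = 0.0338). These are near the threshold, and the first was lost in 10 and the second in 7 of the alternatives run, leaving out LC + MI replicate 1 among them. Slc36a1, the proton-coupled lysosomal carrier of alanine, glycine and proline, was lower in HMRKO + MI livers at 22.4, 26.8 and 27.0 CPM than in LC + MI livers at 41.7, 35.5 and 30.9 CPM (log2 fold change −0.50, standard error 0.15, edgeR adjusted p = 0.0227). Without LC + MI replicate 1 this was −0.38 and did not pass (edgeR adjusted p = 0.0923), nor did it without HMRKO + MI replicate 1. Slc38a9, the lysosomal arginine sensor of the mTORC1 pathway, was at 9.82 to 17.4 CPM in the 12 livers at 1 day and did not pass there. At 12 hours it measured 18.3 to 20.5 CPM in C57 sham and 14.1 to 16.8 CPM in C57 MI livers. That difference did not pass (log2 fold change −0.37, edgeR adjusted p = 0.127). It passed as lower with library totals alone (−1.02, edgeR adjusted p = 0.00202) and with the deposited TPM in limma (−0.90, adjusted p = 0.00277).

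Slc3a2 (ENSMUSG00000010095), the heavy subunit (CD98hc) of the light chains Slc7a5 to Slc7a8, Slc7a10 and Slc7a11, rose in HMRKO livers after MI. It measured 28.1, 29.4 and 31.9 CPM in LC + sham, 31.2, 40.9 and 35.8 CPM in LC + MI livers, 27.1, 26.6 and 28.7 CPM in HMRKO + sham and 62.0, 51.5 and 52.5 CPM in HMRKO + MI livers. The spread within groups was small, and the HMRKO + MI livers lay above the 9 others. Its log2 fold change was 1.01 within HMRKO (standard error 0.13, edgeR adjusted p = 0.000133), 0.62 between the MI groups (standard error 0.13, edgeR adjusted p = 0.00487) and 0.27 in LC livers (standard error 0.13, edgeR adjusted p = 0.241). The interaction was 0.74 (standard error 0.18, edgeR adjusted p = 0.0226), and it was lost with library totals alone and without HMRKO + sham replicate 2 or HMRKO + MI replicate 1 (highest edgeR adjusted p 0.0721).

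Of its light chains, Slc7a6 (ENSMUSG00000031904, y+LAT2, an exchanger of cationic for neutral amino acids) rose with it in HMRKO livers. It measured 0.754, 0.444 and 0.934 CPM in LC + sham, 1.35, 3.06 and 1.76 CPM in LC + MI livers, 0.880, 1.16 and 0.746 CPM in HMRKO + sham and 12.5, 5.88 and 2.44 CPM in HMRKO + MI livers. The HMRKO + MI livers ranged widely, and the lowest lay within the LC + MI range. Its log2 fold change was 2.90 within HMRKO (standard error 0.53, edgeR adjusted p = 0.00102), 1.74 between the MI groups (standard error 0.49, edgeR adjusted p = 0.018) and 1.53 in LC livers, which did not pass (standard error 0.54, edgeR adjusted p = 0.119). The difference between the MI groups was lost without LC + MI replicate 1 or 3 or HMRKO + MI replicate 1 (log2 fold change down to 1.02, highest edgeR adjusted p 0.0997), while the rise within HMRKO livers passed under each alternative. Slc7a5 (LAT1), Slc7a7 (y+LAT1) and Slc7a8 (LAT2) lay between 1.21 and 3.45 CPM in the 12 livers and did not pass in any comparison at 1 day. Slc7a11 (xCT, the cystine-glutamate exchanger) had too few counts to be tested, with 0 to 5 counts in 11 livers and 16 in HMRKO + MI replicate 2. The other heavy subunit, Slc3a1 (rBAT), measured 77.6, 50.4 and 37.1 CPM in LC + sham and 32.2, 24.7 and 18.6 CPM in HMRKO + sham livers, the largest difference of a member between the sham groups (log2 fold change −1.13, standard error 0.32), and did not pass (edgeR adjusted p = 0.467). Its light chain Slc7a9 had at most 1 count in a liver.

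The facilitative carriers of large neutral amino acids did not move together. Slc43a1 (ENSMUSG00000027075, LAT3), which carries leucine and other branched-chain amino acids, measured 11.5, 20.9 and 8.25 CPM in HMRKO + sham and 4.53, 5.51 and 5.38 CPM in HMRKO + MI livers (log2 fold change −1.39, standard error 0.32, edgeR adjusted p = 0.00403). In LC livers it went from 6.57, 12.8 and 8.78 to 5.86, 4.34 and 4.19 CPM and did not pass (log2 fold change −0.98, edgeR adjusted p = 0.0995). Slc43a3, its neighbour in the genome and a purine base carrier, rose in HMRKO livers from 23.0, 27.7 and 28.9 to 62.9, 30.7 and 33.7 CPM (log2 fold change 0.67, standard error 0.23, edgeR adjusted p = 0.0293). That rise rests on HMRKO + MI replicate 1 and was lost in 6 alternatives, with log2 fold changes down to 0.28. Slc43a2 (LAT4) was at 3.28 to 7.82 CPM in the 12 livers at 1 day and did not pass there.

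In the Slc6 family, Slc6a13 (GAT2, the hepatic carrier of GABA and taurine, at the sinusoidal membrane of periportal hepatocytes) was lower in HMRKO + MI livers at 129.7, 125 and 139 CPM. It measured 261, 156 and 185 CPM in LC + MI livers and 242, 199 and 194 CPM in HMRKO + sham livers, with log2 fold changes of −0.61 (standard error 0.19, edgeR adjusted p = 0.032) and −0.69 (standard error 0.20, edgeR adjusted p = 0.0126). The first was lost in 5 alternatives, among them leaving out LC + MI replicate 1 (−0.38, edgeR adjusted p = 0.146) or any HMRKO + MI liver, and the second without HMRKO + sham replicate 1 (edgeR adjusted p = 0.0528). Its neighbour Slc6a12, the betaine carrier, stayed at 68.4 to 95.7 CPM in the 12 livers at 1 day. At 12 hours Slc6a12 measured 121.8, 104.4 and 100.1 CPM in C57 MI and 87.2, 90.9 and 87.9 CPM in C57 sham livers. It did not pass in any comparison at either time. The direction of Slc6a12 at 12 hours depended on scaling. Its log2 fold change was 0.29, but −0.35 with library totals alone and −0.34 with the deposited TPM in limma, none passing. Slc6a13 did not pass at 12 hours (−0.20, edgeR adjusted p = 0.427). It passed as lower with library totals alone (−0.84, edgeR adjusted p = 0.0115) and with the deposited TPM in limma (−0.84, adjusted p = 0.00936). Slc6a8 (ENSMUSG00000019558), the creatine carrier, measured 3.66, 4.10 and 4.01 CPM in LC + MI livers and 7.89, 7.92 and 5.02 CPM in HMRKO + MI livers (log2 fold change 0.82, standard error 0.28, edgeR adjusted p = 0.042), and 4.82, 2.75 and 3.16 CPM in HMRKO + sham livers. It passed the interaction at 1.35 (standard error 0.40, edgeR adjusted p = 0.0387), which was lost in 10 alternatives, and the difference between the MI groups was lost in 8 (highest edgeR adjusted p 0.125). Slc6a9, the glycine carrier GlyT1, was lower in HMRKO + MI livers at 21.3, 26.7 and 26.3 CPM than in LC + MI livers at 35.7, 32.5 and 30.8 CPM (log2 fold change −0.41, standard error 0.13, edgeR adjusted p = 0.0334), which was lost in 7 alternatives. Slc6a6, the taurine carrier, was at 17.8 to 40.6 CPM and did not pass at 1 day.

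Slc6a16 (ENSMUSG00000094152), a family member of unknown substrate, was near the limit of detection and had the largest log2 fold change of the lower members. It measured 1.47, 1.64 and 1.71 CPM in HMRKO + sham and 0.112, 0.219 and 0.355 CPM in HMRKO + MI livers (2 to 7 counts), with 2.70, 0.482 and 0.899 CPM in LC + MI livers. Its log2 fold changes were −2.77 within HMRKO (standard error 0.62, edgeR adjusted p = 0.00339) and −2.50 between the MI groups (standard error 0.63, edgeR adjusted p = 0.0109). Slc6a7 and Slc7a4 also passed as lower within HMRKO livers (log2 fold changes −1.57 and −1.18, edgeR adjusted p = 0.0383 and 0.0319) at no more than 1.34 CPM in any liver, and each was lost in 5 alternatives.

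The Slc1 family did not pass in any comparison at 1 day. Slc1a2 (GLT-1), the glutamate carrier of pericentral hepatocytes, measured 63.6, 133 and 94.9 CPM in LC + sham and 55.5, 74.4 and 72.1 CPM in LC + MI livers, and its log2 fold change was −0.53 (edgeR adjusted p = 0.251). In HMRKO livers it went from 97.1, 111 and 84.0 to 72.6, 67.7 and 112 CPM. Slc1a4 (ASCT1) lay at 1.42 to 6.32 CPM and Slc1a5 (ASCT2) at 4.52 to 12.3 CPM, with the groups overlapping for Slc1a4.

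**Figure D3:**
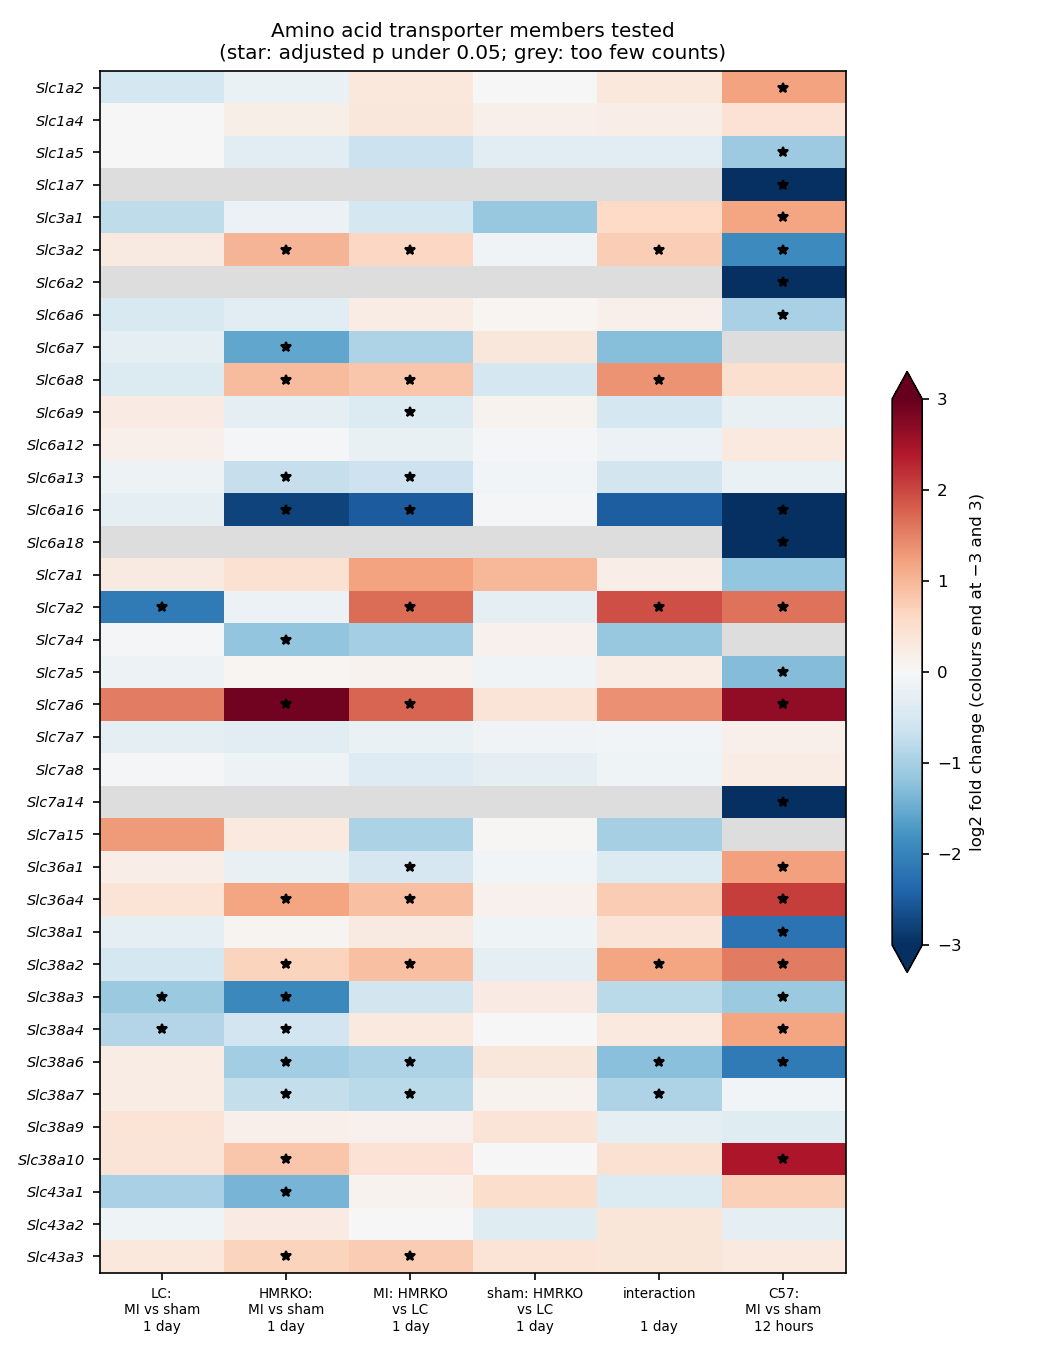
Log2 fold change of every member tested (rows) in each comparison (columns), on a colour scale that ends at −3 and 3, with a star where the edgeR adjusted p was under 0.05 and grey where the member had too few counts. The HMRKO column holds 16 stars and the LC column 3, and the column of sham groups none.

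At 12 hours in C57 livers, 9 of 34 members were higher after MI (26.5%, against 34.3% of all genes) and 12 were lower (35.3%, against 32.0%), and 20 were called (58.8%, against 52.2%). The direction of these shares depends on scaling. With library totals alone, an alternative added after the data were seen, 5 were higher and 16 lower, and with the deposited TPM (counts scaled by transcript length to a fixed total) in limma 6 were higher and 15 lower. The median of all genes moved from 0.11 to −0.54 and −0.37 with them on the log2 scale. None of the 21 members that passed changed direction under any alternative, and 15 passed under each.

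TPM is scaled by transcript length, so it can order the members by level. Slc38a3 had the highest TPM in the 6 livers at 12 hours, with 1013, 1187 and 1140 TPM in C57 sham and 439, 264 and 288 TPM in C57 MI livers. In C57 sham livers it was followed by Slc3a2 (159 to 301 TPM), Slc6a13 (114 to 145 TPM), Slc38a4 (69.0 to 93.4 TPM) and Slc6a12 (63.9 to 69.2 TPM), of which Slc38a4 and Slc6a12 overlapped. In C57 MI livers Slc38a4 (121 to 178 TPM) came after Slc38a3, and Slc6a13 (54.8 to 89.7 TPM), Slc3a2 (46.8 to 77.9 TPM), Slc6a12 (48.8 to 59.2 TPM) and Slc38a2 (42.4 to 60.03 TPM) overlapped one another. The members summed to 1832 to 1994 TPM in C57 sham and 825 to 1005 TPM in C57 MI livers, and Slc38a3 made up 55.3% to 60.8% and 32.0% to 43.7% of these sums.

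**Figure D4:**
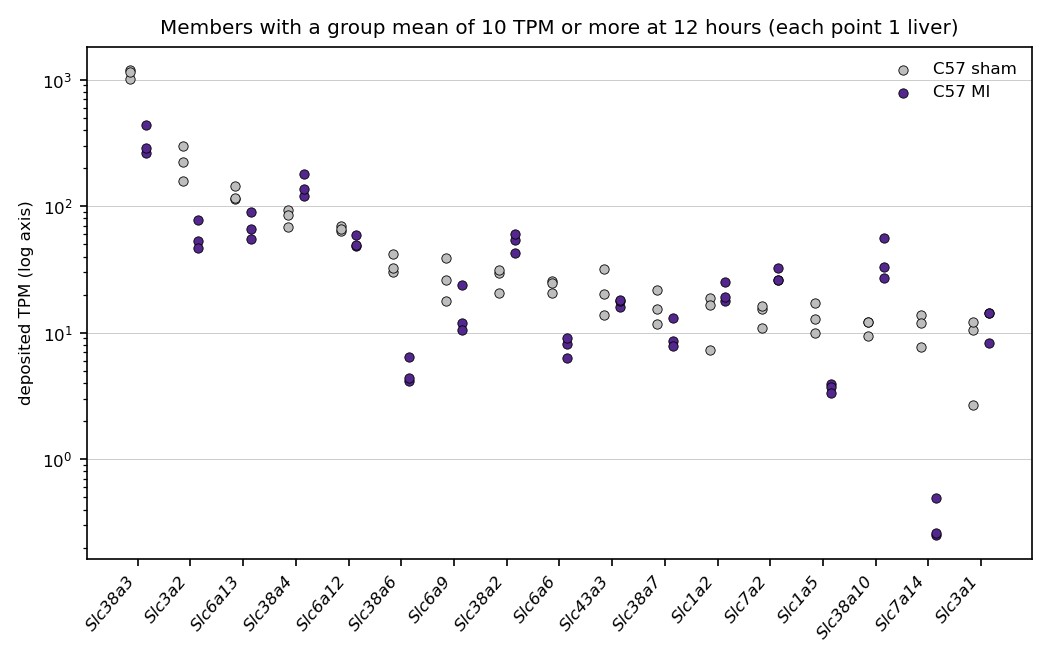
Deposited TPM (log axis) at 12 hours for the 17 members with a mean of at least 10 TPM in either group, each point being 1 liver. Slc38a3 was highest in each liver, Slc38a4, Slc38a2, Slc38a10 and Slc7a2 lay higher after MI, and Slc3a2, Slc38a6, Slc6a6, Slc1a5 and Slc7a14 lay lower.

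The carriers described at 1 day took other directions at 12 hours in several cases. Slc7a2 measured 72.5, 72.4 and 49.0 CPM in C57 sham and 184, 186 and 223 CPM in C57 MI livers (log2 fold change 1.62, standard error 0.23, edgeR adjusted p = 0.000131), the opposite direction to LC livers at 1 day. Under the alternatives it lay between 0.96 and 1.77 and passed in each. The 9 hepatocyte markers tested had a median log2 fold change of 1.61 in the same comparison, where 7 were higher and 0 lower. Depth and operation cannot be told apart there, and whether Slc7a2 moved apart from these markers was not tested. Slc38a4 was also higher after MI, at 378, 409 and 503 against 163, 212 and 194 CPM (log2 fold change 1.18, standard error 0.22, edgeR adjusted p = 0.000907), but with library totals alone it did not pass (0.53, edgeR adjusted p = 0.0645). Slc38a2 measured 176, 231 and 242 CPM in C57 MI and 82.5, 83.4 and 55.6 CPM in C57 sham livers (log2 fold change 1.55, standard error 0.24, edgeR adjusted p = 0.00024). The tables were processed separately and differ in genotype and time, so no test was made between them.

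Slc38a3 was lower after MI at 12 hours as at 1 day, at 972, 599 and 619 against 1483, 1663 and 1618 CPM (log2 fold change −1.12, standard error 0.26, edgeR adjusted p = 0.00342). Slc38a10 (92.1, 198 and 112 against 21.2, 27.3 and 26.1 CPM), Slc7a6 (3.37, 15.9 and 7.76 against 1.77, 0.791 and 1.74 CPM) and Slc36a4 (7.37, 11.3 and 9.40 against 0, 3.95 and 2.08 CPM) were higher. Their log2 fold changes were 2.42, 2.67 and 2.08 (edgeR adjusted p = 6.22e-05, 0.0056 and 0.0056), and they rested for Slc7a6 on 2 to 5 estimated counts in the sham livers. Slc36a1, Slc1a2 and Slc3a1 also passed as higher (1.23, 1.22 and 1.19), but did not pass with library totals alone (edgeR adjusted p = 0.05, 0.0887 and 0.289) or with the deposited TPM in limma (adjusted p = 0.08, 0.137 and 0.25).

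Slc3a2 was lower after MI at 12 hours, at 127, 95.1 and 82.9 against 509.7, 369 and 267 CPM (log2 fold change −1.91, standard error 0.28, edgeR adjusted p = 0.000196), where it was higher in HMRKO livers at 1 day. Its light chain Slc7a5 measured 5.69, 5.52 and 6.26 against 22.4, 6.72 and 15.3 CPM (log2 fold change −1.31, standard error 0.36, edgeR adjusted p = 0.00865). Slc38a6 (18.0, 12.1 and 12.1 against 54.2, 72.0 and 56.3 CPM, log2 fold change −2.12), Slc6a6 (33.97, 44.2 and 47.4 against 91.3, 70.0 and 85.1 CPM, −0.97), Slc1a5 (6.53, 6.83 and 5.79 against 11.8, 16.2 and 12.9 CPM, −1.10) and Slc38a1 (−2.21) also passed as lower, with edgeR adjusted p from 2.47e-05 to 0.00848. The log2 fold changes of Slc3a2, Slc38a6, Slc6a6 and Slc1a5 were −1.91, −2.60, −1.49 and −1.58 from the deposited TPM in limma. The C57 sham values of Slc3a2, Slc7a5, Slc38a6, Slc6a6 and Slc38a1 lay above those of every liver at 1 day. The 1 day values were 26.6 to 62.0 CPM for Slc3a2, 1.21 to 2.46 for Slc7a5 and 5.94 to 23.3 for Slc38a6. For Slc3a2 and Slc7a5 the C57 MI values also lay above these. The part of the shallow C57 sham libraries in these falls was not tested.

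The 5 members with the largest falls at 12 hours were Slc6a16, which was tested at both times, and 4 brain, kidney, nerve and retina carriers with too few counts to be tested at 1 day. Slc7a14, a neuronal lysosomal carrier, had 124, 152 and 115 estimated counts in the shallow C57 sham libraries and 55.6, 29.4 and 29.96 in the deeper C57 MI libraries (log2 fold change −4.42, standard error 0.34, edgeR adjusted p = 5.00e-06). At 1 day it had 0 to 2 counts in any liver. Slc6a18, a kidney carrier, went from 36.5, 60.3 and 52.7 to 41.7, 21.7 and 25.2 estimated counts (log2 fold change −3.36), and Slc6a2, the noradrenaline carrier, from 22.6, 20.8 and 3.88 to 11.3, 3.13 and 6.01 (−3.95). Both had 0 counts in the 12 livers at 1 day. Slc1a7, a glutamate carrier of retina, went from 26.2, 26.3 and 37.4 to 21.5, 7.22 and 15.8 estimated counts (−3.60). Slc6a16 had 2 to 18 estimated counts in the C57 sham and 0 to 7 in the C57 MI libraries (−3.99, edgeR adjusted p = 0.00128), and was −1.35 from the deposited TPM in limma. Whether the reads counted for the 4 carriers not tested at 1 day came from these genes was not tested.

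The members that were not tested had few counts. Of 28 at 1 day, 9 had no count in any of the 12 livers and the highest count was 16 (Slc7a11), and of 22 at 12 hours the highest estimated count was 16.2 (Slc7a11, C57 MI replicate 3). They were mostly carriers of brain, kidney and intestine, such as Slc6a11 (GABA), Slc6a3 (dopamine), Slc6a19 (neutral amino acids) and Slc1a6 (glutamate). A count of 0 allows up to 3 counts in a library of this depth, by counting error only.

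Other amino acid carriers and related genes, none of them among the members, were taken from a list of 20 symbols. It holds mitochondrial and lysosomal carriers, Slc6a20a and Slc6a20b of the Slc6 family, and some older and newer names of the same gene. Of 14 tested at 1 day, 0 passed in LC livers, and 3 rose (21.4%, against 22.0% of all genes) and 4 fell (28.6%, against 21.7%) in HMRKO livers after MI. Slc25a22, the mitochondrial glutamate carrier, and Slc25a12, the aspartate-glutamate exchanger, rose within HMRKO livers (log2 fold changes 1.32 and 0.75, edgeR adjusted p = 0.00145 and 0.00356), and Slc15a4, a lysosomal carrier of histidine and peptides, fell (−1.02, edgeR adjusted p = 0.000239). Their median log2 fold change was −0.13 in LC and −0.05 in HMRKO livers. At 12 hours 7 of 13 were higher (53.8%, against 34.3%) and 2 were lower (15.4%, against 32.0%), with a median of 0.57.

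Genes of the amino acid response, through which shortage of amino acids is known to act on the translation factor eIF2 and on Atf4, were taken from a list of 25 that also holds sensors of mTORC1. Of 22 tested at 1 day, 3 rose (13.6%, against 2.68% of all genes) and 0 fell in LC livers after MI. In HMRKO livers 13 rose (59.1%, against 22.0%) and 1 fell (4.55%, against 21.7%). Asns (asparagine synthetase) measured 3.26, 4.70 and 4.08 CPM in LC + MI livers and 11.1, 18.0 and 12.1 CPM in HMRKO + MI livers, and 0.922, 0.482 and 0.395 CPM in HMRKO + sham livers. Its log2 fold change was 4.50 within HMRKO livers and 1.77 between the MI groups (edgeR adjusted p = 7.82e-05 and 0.0108). Chac1, which breaks down glutathione, measured 4.81, 4.38 and 2.56 CPM in LC + MI livers and 30.3, 19.8 and 15.8 CPM in HMRKO + MI livers (log2 fold change 2.50, edgeR adjusted p = 0.00141). Atf4 itself rose within HMRKO livers (log2 fold change 0.93, edgeR adjusted p = 0.00135). The list's median was 0.22 in LC and 0.66 in HMRKO livers, and at 12 hours 15 of 24 were higher (62.5%, against 34.3%) and 6 lower (25.0%, against 32.0%) with a median of 1.28. Slc38a2, Slc3a2 and Slc7a6 rose with these genes in HMRKO livers at 1 day. Slc7a5, Slc7a11 and Slc1a4, which the same response is known to induce, did not pass there or were not tested. At 12 hours Slc38a2 and Slc7a6 were higher after MI (log2 fold changes 1.55 and 2.67). Slc3a2 and Slc7a5 were lower there (−1.91 and −1.31, edgeR adjusted p = 0.000196 and 0.00865), opposite to most genes of the list. Their C57 sham values lay above those of every liver at 1 day. Depth and operation cannot be told apart at 12 hours.

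Markers of other cells moved in the same livers. Of 6 neutrophil markers tested at 1 day, 5 rose in HMRKO livers after MI (83.3%, against 22.0% of all genes) and 0 fell. Their summed CPM was 8.88 to 14.0 in HMRKO + sham, 30.1 to 33.3 in HMRKO + MI, 4.71 to 13.0 in LC + sham and 10.6 to 20.3 in LC + MI livers. Of 5 lymphocyte markers, 3 fell in HMRKO livers (60.0%, against 21.7%), with a summed CPM of 2.26 to 4.04 after sham operation and 0.438 to 0.727 after MI. Kupffer cell and macrophage markers summed to 212 to 276 CPM in LC + sham and 142 to 154 CPM in LC + MI livers. Of these markers 3 of 10 fell in LC livers, where 2.33% of all genes fell. They summed to 142 to 200 CPM in HMRKO + sham and 88.1 to 176 CPM in HMRKO + MI livers. In HMRKO livers 3 of 10 fell and 1 rose, where 21.7% and 22.0% of all genes did. Among 9 hepatocyte markers, 2 rose in HMRKO livers (22.2%, against 22.0%) and 0 fell. At 12 hours, 7 of 9 hepatocyte markers were higher after MI (77.8%, against 34.3% of all genes). Their summed CPM was 40440 to 44222 in C57 sham and 104332 to 149634 in C57 MI livers. Of 9 stellate cell markers, 6 were lower (66.7%, against 32.0%). Of 8 neutrophil markers tested at 12 hours, 5 were higher (62.5%, against 34.3%) and 2 were lower (25.0%, against 32.0%). The summed CPM of the neutrophil markers was 136 to 180 in C57 sham and 45.6 to 91.2 in C57 MI livers. No marker of any list was at 0 in all livers. The part of these cells in the values of Slc7a6, Slc3a2, Slc43a3 and the other members was not tested.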

How the data were processed

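RNA of 18 mouse livers was sequenced by the authors with TruSeq libraries. For the 1 day experiment the authors deposited a raw count of reads per gene. At 12 hours the deposited table gives, for each gene, its estimated count with its FPKM and TPM. The authors scaled the TPM values to a fixed total after dividing by transcript length, and FPKM was not used. The submitters' processing notes list the aligners HISAT2 2.1.0, TopHat2 and Bowtie2 2.2.3, as well as DESeq2 and build mm9. How reads were counted, on which annotation and with what strand setting, is not given in the sources used here. Promoters come from RefSeq (GRCm38.p6), and their coordinates were not used with the counts. The operation of the MI livers at 1 day and all times come from the study design, since the labels leave them out. Nothing says how livers of a group relate beyond separate samples, so p-values measure the spread between these samples.

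Genes were kept by filterByExpr (minimum count 10, total 15), scaled by TMM and fitted with edgeR 4.0.16 in R 4.3.3 (quasi-likelihood, 2-sided), over the 12 livers at 1 day and apart over the 6 at 12 hours, whose counts were rounded. Standard errors are the log2 fold change over the root of F. The biological coefficient of variation was 0.209 and 0.240. CPM is TMM-scaled. The calling threshold follows the study's methods. Alternatives were RLE factors, DESeq2 1.42.0, other count filters, the replicate number as a block, only the groups compared, leaving out each liver, TPM with limma 3.58.1 (pseudocount 1) and, added later, library totals alone. The fit was tested on simulated data.

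Every tested member may be named. Values in every liver are given for a fixed set of 13 members and for up to 6 members of smallest p per comparison, and others were added after their values were seen. Members, lists and rules were chosen with earlier results of these data known.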

Additional observations from a re-analysis of the deposited data

Results flagged for a closer look

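The response to MI differed between HMRKO and LC livers for 6 members, tested by the interaction of genotype and operation in edgeR over 33 members and all 14266 genes. The log2 response in HMRKO minus that in LC livers was 1.93 for Slc7a2, 1.18 for Slc38a2, 0.74 for Slc3a2 and 1.35 for Slc6a8. It was −1.25 for Slc38a6 and −0.92 for Slc38a7. The adjusted p was 0.00812 for Slc7a2, 0.0198 for Slc38a2, 0.0226 for Slc3a2, 0.0338 for Slc38a6, 0.0387 for Slc6a8 and 0.047 for Slc38a7. For Slc7a2 the difference comes with a fall in LC livers (−2.11) that had no counterpart passing in HMRKO livers (−0.18). For Slc38a2 and Slc6a8 the log2 fold changes had opposite signs in the genotypes (−0.52 and 0.66, −0.40 and 0.96), of which those in HMRKO livers passed. Only the difference for Slc7a2 passed under every alternative run. That of Slc38a2 was lost in 1, that of Slc3a2 in 3, that of Slc38a6 in 7 and those of Slc6a8 and Slc38a7 in 10 each of the 18 alternatives.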

How the results depend on the processing

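In LC livers the 3 members became 5 with DESeq2 and 6 with no filter beyond 1 count. Leaving out a liver gave 1 to 4, with 1 left without LC + sham replicate 2, LC + MI replicate 2 or LC + MI replicate 3. Between the MI groups the 13 became 6 to 15, with 6 without LC + MI replicate 1 and 8 without HMRKO + MI replicate 1. In HMRKO livers the 16 became 9 to 16, with 10 without HMRKO + sham replicate 1 and 9 without HMRKO + MI replicate 1. The 6 of the interaction became 2 to 6, with 3 without LC + sham replicate 2 or 3, LC + MI replicate 1 or HMRKO + MI replicate 1, and 2 without HMRKO + sham replicate 2. Between the sham groups leaving out a liver gave 0 each time, and 1 member passed with no filter beyond 1 count. At 12 hours the 21 became 17 to 25. Where a group kept 2 livers, the fit shares the spread of all groups. A log2 fold change over 1 left 2, 3, 9, 0, 4 and 20 members in the order LC, MI groups, HMRKO, sham groups, interaction and 12 hours.

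The replicate number did not pair the livers (correlations of same-numbered deviations −0.171 to 0.182 over 18 pairs at 1 day and −0.0890 to 0.0236 over 3 at 12 hours). With it as a replicate block the counts were 3, 13, 13, 0, 5 and 21 in the same order, and Slc43a3, Slc6a7 and Slc7a4 in HMRKO livers and Slc38a7 in the interaction no longer passed. None of the members that passed reversed under any alternative. Those that passed under each were 1 of 3, 6 of 13, 8 of 16, 1 of 6 and 15 of 21 (without the sham groups). At 12 hours depth limits the sham values, where members under 10 estimated counts carry wide counting error. The cause of these differences between settings was not tested.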
